A study of Mus musculus with 8 samples.

Results

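The mRNAs described here are 9 known targets of the let-7 family of microRNAs (miRNAs), measured in wild-type and Ago2 knock-out (ΔAgo2) Lewis lung carcinoma (LLC) cells. They are Hmga2, Hmga1, Igf2bp1, Igf2bp2, Igf2bp3, Lin28b, Trim71, Arid3a and Arid3b, listed by symbol as established targets, with earlier results of these data known, and they are 9 of 55487 genes in the count table. All 9 held enough reads to pass the filter on low counts and enter the test, with 14228 genes in all. LLC is a mouse lung carcinoma line, and the cells were grown in culture. Both groups, of 4 biological replicates each, were kept in DMEM with GlutaMAX, 10% ESC FBS and penicillin-streptomycin, carried no further treatment by their labels, and share batch 1. The ΔAgo2 cells had received Cas9 and a guide against Ago2 from a lentivirus under puromycin selection. The study derived clones from single sorted cells, and which clone was sequenced, or whether a control vector was put into the wild-type cells, is not given in the sources used here. Libraries were made from polyadenylated RNA, so mature let-7 itself, and the proteins, were not measured.

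An miRNA is a short RNA that an Argonaute protein holds and uses as a guide. Its seed, bases 2 to 8 from the 5′ end, pairs with matching sites that lie mostly in the 3′ untranslated region (3′ UTR) of an mRNA, and the bound Argonaute recruits factors that block translation and shorten the life of the mRNA. Let-7 rises as tissues mature and holds down genes of embryonic growth, several of which return in tumors. Loss of Argonaute function is therefore asked about as a possible release, or derepression, of such mRNAs, and that is the question put to these libraries. Mammals have 4 Argonaute proteins that all bind miRNAs, of which Ago2 is the one that cuts fully paired targets.

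The family members annotated in the mouse share 1 seed. They are shown because every site counted here is defined by it. Of the 9 mature let-7 family sequences in RefSeq (GRCm38.p6), 4 are printed 5′ to 3′, with the seed in capitals, and all 9 hold the same 7 bases.
let-7a: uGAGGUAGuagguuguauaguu
let-7d: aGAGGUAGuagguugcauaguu
let-7g: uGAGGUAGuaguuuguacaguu
miR-98: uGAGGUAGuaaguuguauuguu

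A full seed match on the mRNA followed by an A reads CTACCTCA and is called an 8mer. The same match without that A reads CTACCTC and is called a 7mer-m8, so every 8mer also holds the letters of a 7mer-m8. Searched on the sense strand of the 3′ UTR of the longest coding transcript (GENCODE M21, GRCm38, which is mm10), an 8mer was found in 2.91% of 21648 genes and either kind in 8.56%. In that transcript, every one of the 9 target mRNAs held a 7mer-m8 or an 8mer, and 7 of them held an 8mer, with 12 8mers and 10 7mer-m8 matches in all. The 9 were listed as known let-7 targets, so their share with a match, set beside that of all genes, is not an independent result. Such a match is a description of the sequence and does not show that let-7 binds there in these cells.

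The windows below run 22 bases 5′ to 3′ on the mRNA, and end opposite the first base of let-7, with the matching letters in capitals. For Hmga2 all 4 8mer and 7mer-m8 matches are shown, since with all 8 libraries it had the largest change among the targets.
Hmga2, 8mer: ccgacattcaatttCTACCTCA
Hmga2, first 7mer-m8: cccactcctcaataCTACCTCt
Hmga2, next 7mer-m8: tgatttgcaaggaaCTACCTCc
Hmga2, last 7mer-m8: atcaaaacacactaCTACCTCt
The 8mer starts at base 58 of the 3014-base 3′ UTR, and its 22-base window lies on the minus strand at chr10:120364224-120364245. The other 3 matches start at bases 1295, 1733 and 2591 (windows at chr10:120362987-120363008, chr10:120362549-120362570 and chr10:120361691-120361712).

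For the Igf2bp genes, Lin28b and Trim71 the 8mer nearest the stop codon is shown, so that the sites of mRNAs with different roles can be set side by side.
Igf2bp1: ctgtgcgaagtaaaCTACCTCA
Igf2bp2: cacacaaataaaagCTACCTCA
Igf2bp3: gcatttttactcaaCTACCTCA
Lin28b: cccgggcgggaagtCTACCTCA
Trim71: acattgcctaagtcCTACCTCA
These windows lie at chr11:95961778-95961799, chr16:22059473-22059494, chr6:49086787-49086808, chr10:45381022-45381043 and chr9:114512472-114512493, all on the minus strand and all in 3′ UTRs. Arid3a holds 1 8mer, 1974 bases into a 3′ UTR of 3082. Arid3b and Hmga1 hold no 8mer, and their only 7mer-m8 is shown for contrast.
Arid3b: atttcaataaagctCTACCTCt
Hmga1: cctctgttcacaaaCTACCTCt
These windows lie at chr9:57790361-57790382 (minus strand) and chr17:27563278-27563299 (plus strand). The Arid3b match starts at base 2148 of a 3′ UTR of 2160. A shorter annotated Arid3b transcript, with a 3′ UTR of 2003 bases, holds no 8mer or 7mer-m8. Matches that read TACCTCA but lack the first C were not included. The longest transcript of Arid3b holds 4 of them and that of Hmga2 3. Arid3a and Trim71 hold 2 each, Lin28b, Igf2bp1 and Igf2bp2 1 each, and Hmga1 and Igf2bp3 0.

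**Figure D1:**
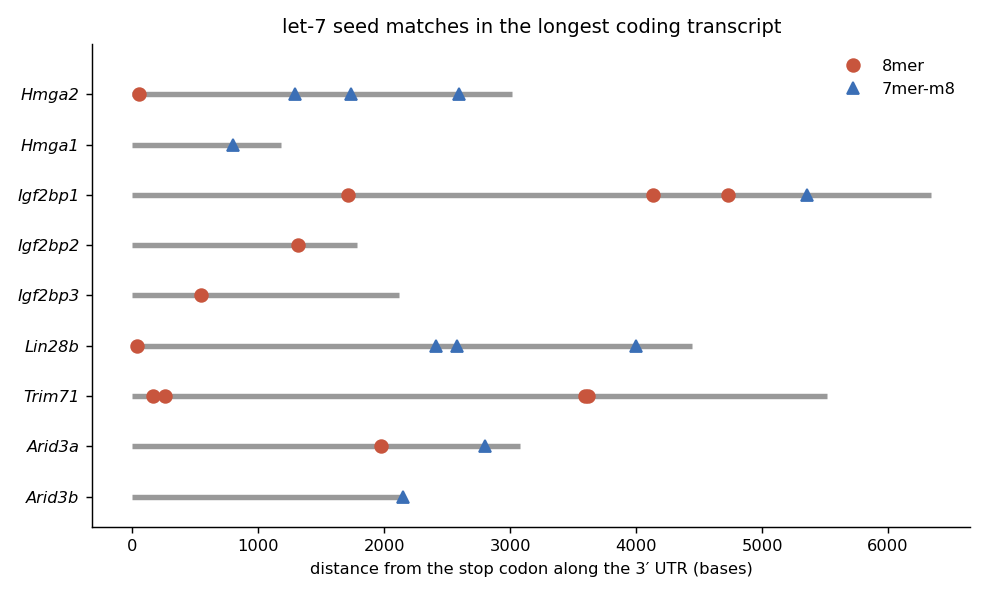
Let-7 seed matches in the 3′ UTR of each target mRNA, plotted by distance from the stop codon in bases, with grey bars for the length of the 3′ UTR, circles for 8mers and triangles for 7mer-m8 matches. In the kinds plotted, Hmga2 and Lin28b have the same layout, 1 8mer within 58 bases of the stop codon and 3 7mer-m8 matches further on. Trim71 has the most 8mers, 4.

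The libraries held 39628101 to 68530912 counts. Ago2 mRNA ran from 119 to 520 CPM (the usual scaling of counts by library size, here adjusted with TMM factors) in wild-type and from 293 to 408 CPM in ΔAgo2 libraries, so its level does not check the labels, and a small Cas9 lesion need not lower an mRNA. Wild-type replicate 4 stood apart. Its share of mitochondrial counts was 0.540%, where the rest had 2.39% to 4.51%, and genes rich in GC were high in it relative to wild-type replicates 1 to 3 (Spearman rho 0.72 between GC content and that difference, over genes, which are not independent replicates). Of the 9 targets, 7 were at their lowest wild-type level in this library, as were 40.2% of all tested genes, so results that rest on it are given with and without it. Vim, Fn1, Krt8 and Krt18 were expressed in every library, whereas Epcam and the lung epithelial markers Nkx2-1, Sftpc and Scgb1a1 had at most 1 count in any library. Cdh1 had at most 9 counts and Krt19 at most 139, while the mesenchymal genes Cdh2 and Zeb1 were expressed in every library. Markers of immune, endothelial and red cells had at most 39 counts in any library. Among fibroblast markers, Pdgfra ran from 11.7 to 85.7 CPM, and Col1a1 and Dcn reached at most 3.01 and 7.81 CPM. In such bulk RNA, fewer cells with an mRNA and less of it per cell cannot be told apart.

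Hmga2 was the one target whose libraries separated completely by genotype. It encodes an HMG protein that bends DNA at AT-rich sites, is abundant in embryos, and is a classical let-7 target. Its level in wild-type replicates 1 to 4 was 1166, 561, 299 and 297 CPM. In ΔAgo2 replicates 1 to 4 it was 1926, 1641, 2148 and 1587 CPM. Every ΔAgo2 library lay above every wild-type library, and the wild-type libraries themselves ran over a wide range, with replicate 1 nearest to the ΔAgo2 cells. The means were 581 ± 410 and 1826 ± 262 CPM (SD, n = 4 each), a ratio of 3.14. On the log2 scale the change was 1.65, with a standard error of 0.45 and a 95% interval of 0.65 to 2.66. It did not pass the test across all genes, with adjusted p = 0.287 (edgeR's quasi-likelihood test, two-sided, Benjamini-Hochberg adjustment over 14228 genes). The exact two-sided permutation test on CPM gave p = 0.0286 for Hmga2, the smallest that 4 against 4 can give. Any gene whose groups do not overlap gets this value, so it only restates the separation of the libraries. With ΔAgo2 higher, the groups did not overlap for 3.09% of tested genes. For the other targets, the exact two-sided permutation test on CPM gave p = 0.0571 to 0.714.

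The difference in Hmga2 remained on one side of 0 in each of the 22 fits tried, between 1.25 and 2.25 on the log2 scale. These fits reuse the same libraries, whose groups do not overlap for Hmga2, so an unchanged sign is not independent evidence. Leaving out wild-type replicate 1 gave 2.25 (adjusted p = 0.067), and leaving out replicate 4 gave 1.45 (edgeR, adjusted p = 0.185). With each library corrected for GC content the value was 1.505 (edgeR, adjusted p = 0.158). DESeq2, the test the study used, put Hmga2 past the threshold, with a log2 fold change of 1.67 and adjusted p = 0.0189, and it was the 1 target of 9 that DESeq2 called, where 2.23% of 17926 genes with an adjusted p were called.

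**Figure D2:**
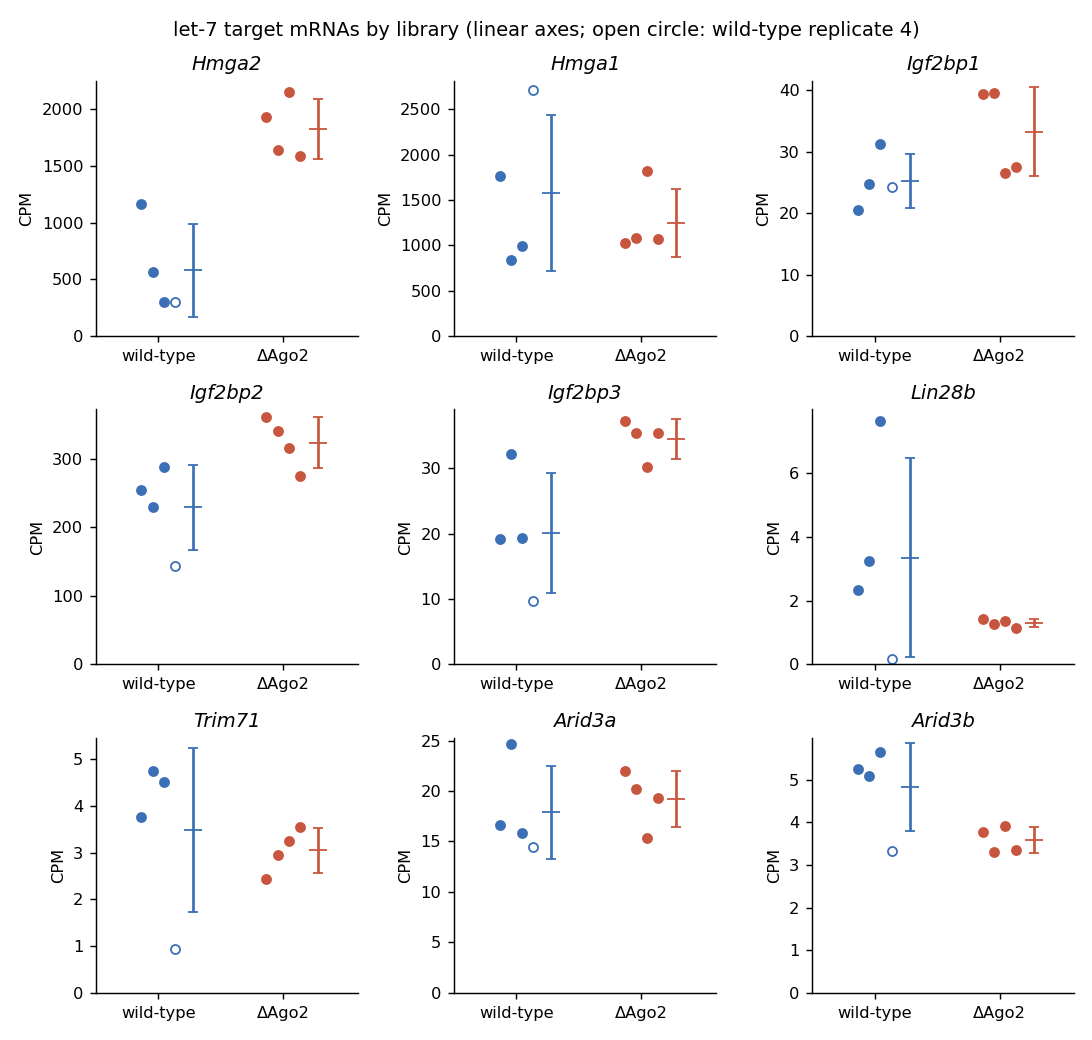
CPM of each of the 9 target mRNAs in the 4 wild-type (blue) and 4 ΔAgo2 (red) libraries, on linear axes, with the mean and SD beside the points and wild-type replicate 4 as an open circle. Hmga2 is separated by genotype, from 297 to 1166 against 1587 to 2148 CPM, and the other 8 overlap.

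Hmga1, the other HMG gene of the list, did not follow Hmga2. It encodes an AT-hook protein of the same family, is on in proliferating cells of many kinds, and holds the weaker kind of site. Its level was 1771, 838, 990.3 and 2714 CPM in wild-type replicates 1 to 4 and 1021, 1081, 1815 and 1075 CPM in ΔAgo2 replicates 1 to 4. The groups overlapped along most of their range, the highest library being wild-type replicate 4 and the lowest wild-type replicate 2. Its log2 fold change was -0.34 ± 0.41 (SE), with adjusted p = 0.843 (edgeR), and it turned to 0.07 without wild-type replicate 4 and to 0.08 with the GC correction, so no direction is given. The transcript of Hmga1 has 61.4% GC, against 45.7% for Hmga2 and a median of 49.6% over tested genes. Hmga1b, annotated elsewhere as a retrocopy of Hmga1, was at 5.91 ± 3.07 and 4.57 ± 1.74 CPM (SD, n = 4 each), and reads may have been shared between the copies by the counting.

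Set against each other within a library, the HMG genes had different proportions in the 2 genotypes. In TPM, a level that takes transcript length and depth into account, Hmga2 stood at 0.207, 0.21, 0.0947 and 0.0343 of Hmga1 in wild-type replicates 1 to 4. In ΔAgo2 replicates 1 to 4 the ratio was 0.592, 0.476, 0.371 and 0.463. The ranges did not overlap. This ratio does not depend on how libraries are scaled to each other, but it was chosen after the values were seen and is given without a test, and it is not corrected for GC content.

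The Igf2bp genes encode 3 RNA-binding proteins of fetal and tumor cells that stabilise the mRNAs they bind. All 3 had higher means in ΔAgo2 cells, none passed the test across all genes, and in none did the genotypes separate. Igf2bp2 was by far the most abundant of them. It was at 255, 229.98, 288 and 144 CPM in wild-type replicates 1 to 4 and at 361, 341, 316 and 275 CPM in ΔAgo2 replicates 1 to 4. Wild-type replicate 3 lay just above the lowest ΔAgo2 library, and replicate 4 was well below all others. For Igf2bp2 the log2 fold change was 0.50 ± 0.28 (SE), with a 95% interval of -0.12 to 1.11 and adjusted p = 0.731 (edgeR). Without wild-type replicate 4 it was 0.33 (95% interval -0.03 to 0.70), with adjusted p = 0.444 (edgeR).

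Igf2bp3 was at 19.2, 32.1, 19.3 and 9.66 CPM in the wild-type and 37.2, 35.4, 30.1 and 35.5 CPM in the ΔAgo2 libraries, in replicate order. Wild-type replicate 2 alone reached the ΔAgo2 range. The fitted log2 difference was 0.78 ± 0.35 (SE, 95% interval 0.01 to 1.55), with adjusted p = 0.677 (edgeR). Without wild-type replicate 4 it was 0.56, with adjusted p = 0.354.

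Igf2bp1, the member of the family with 3 8mers, was at 20.6, 24.8, 31.3 and 24.3 CPM in wild-type replicates 1 to 4. The ΔAgo2 replicates 1 to 4 were at 39.5, 39.6, 26.6 and 27.5 CPM. The ΔAgo2 libraries fell into a pair near 40 and a pair within the wild-type range. For Igf2bp1 the log2 fold change was 0.40 ± 0.27 (SE, 95% interval -0.19 to 0.99), with adjusted p = 0.742 (edgeR). The 3 Igf2bp genes kept a positive value in all 22 fits. Igf2bp2 supplied 82.7% to 88.5% of their summed TPM in wild-type and 83.8% to 86.9% in ΔAgo2 libraries, ranges that overlap, so the make-up of the family did not separate the genotypes.

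**Figure D3:**
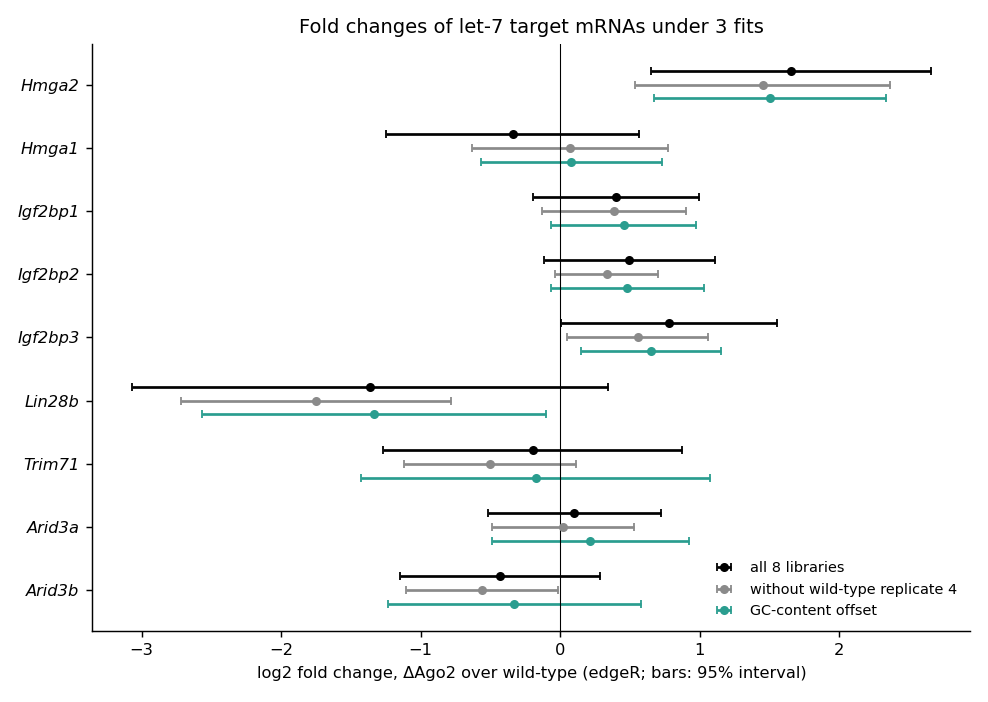
Log2 fold change of each target mRNA, ΔAgo2 over wild-type, from edgeR with all 8 libraries (black), without wild-type replicate 4 (grey) and with a GC-content offset (green), with 95% intervals as bars. The intervals of Hmga2 and Igf2bp3 lie above 0 in all 3 fits, the values of Igf2bp1, Igf2bp2 and Arid3a are above 0 in all 3 with intervals that include 0, Lin28b lies at -1.75 to -1.33, and Hmga1 changes sign. The interval of Lin28b includes 0 with all 8 libraries. It lies below 0 without wild-type replicate 4 (-2.72 to -0.78) and with the GC offset (-2.57 to -0.10). That of Arid3b lies below 0 only without wild-type replicate 4 (-1.11 to -0.02).

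Lin28b and Trim71 act on let-7 or with it. Lin28b binds the let-7 precursor and blocks its maturation, so it and let-7 repress each other, and Trim71 is a ubiquitin ligase and repressor of mRNAs in stem cells. Lin28b was low. Its counts were 115, 229, 513 and 6 in wild-type replicates 1 to 4, or 2.34, 3.24, 7.62 and 0.186 CPM. In ΔAgo2 replicates 1 to 4 they were 88, 53, 56 and 61, or 1.43, 1.26, 1.37 and 1.15 CPM. Of the wild-type libraries, 3 were above all ΔAgo2 libraries and replicate 4 was below them all. With all libraries its log2 fold change was -1.36 ± 0.77 (SE, 95% interval -3.07 to 0.34), with adjusted p = 0.732 (edgeR).

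Without wild-type replicate 4 the log2 fold change of Lin28b was -1.75 ± 0.43 (SE, 95% interval -2.72 to -0.78), with adjusted p = 0.135 (edgeR). DESeq2 on the same 7 libraries, a fit chosen after the values were seen, gave adjusted p = 0.0025, and called 2.04% of 17905 genes lower. Of the 22 fits, this was the 1 that called Lin28b, and with all 8 libraries DESeq2 gave adjusted p = 0.548. Its value also leaned on wild-type replicate 3, the highest library, without which it was -0.57.

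Trim71 was at 3.76, 4.75, 4.50 and 0.931 CPM in wild-type replicates 1 to 4 and at 2.44, 2.95, 3.26 and 3.56 CPM in ΔAgo2 replicates 1 to 4. As with Lin28b, wild-type replicates 1 to 3 lay above all ΔAgo2 libraries and replicate 4 below. The log2 fold change was -0.20 ± 0.48 (SE, 95% interval -1.27 to 0.88), with adjusted p = 0.933 (edgeR), and -0.50 without wild-type replicate 4, with adjusted p = 0.491. On TPM with a pseudocount of 0.1 it was 0.17, so no direction is given for Trim71, the target with the most 8mers.

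Arid3a and Arid3b encode DNA-binding proteins of the ARID family. Arid3a was at 16.6, 24.7, 15.8 and 14.4 CPM in wild-type and 21.96, 20.2, 15.3 and 19.3 CPM in ΔAgo2 replicates 1 to 4. The groups covered the same range, with a log2 fold change of 0.10 ± 0.28 (SE, 95% interval -0.52 to 0.72) and adjusted p = 0.938 (edgeR). Arid3b was at 5.25, 5.09, 5.65 and 3.32 CPM in wild-type and 3.78, 3.30, 3.92 and 3.35 CPM in ΔAgo2 replicates 1 to 4. Wild-type replicates 1 to 3 lay close together above every ΔAgo2 library, and replicate 4 lay within the ΔAgo2 range. For Arid3b the log2 fold change was -0.43 ± 0.32 (SE, 95% interval -1.15 to 0.29, adjusted p = 0.763), and -0.56 without wild-type replicate 4 (95% interval -1.11 to -0.02, adjusted p = 0.381; edgeR). Arid3b was below 0 in all 22 fits.

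Counted over the list, 0 of 9 targets passed an adjusted p of 0.05 by edgeR, where 0.295% of all tested genes did (42 of 14228). At an unadjusted p under 0.05, 2 were higher (Hmga2 and Igf2bp3) and 0 lower, beside 2.72% and 4.62% of tested genes. DESeq2 called 1, and limma-voom with quality weights called 0, where it called 1.81% of tested genes. The log2 fold change was above 0 for 5 targets and below 0 for 4, and above 0 for 41.2% of tested genes. The median over the 9 was 0.10, beside -0.11 over all tested genes. With the GC correction these medians were 0.22 and -0.08, and without wild-type replicate 4 they were 0.07 and -0.03. CPM failed to overlap between genotypes, with ΔAgo2 higher, for 1 of 9 targets and for 3.09% of tested genes. Without wild-type replicate 4, 3 targets lay wholly lower in ΔAgo2 cells (Lin28b, Trim71 and Arid3b), as did 6.09% of tested genes, and Hmga2 wholly higher, as did 5.97%.

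By TPM, which allows levels of different genes to be compared, the order in wild-type cells ran from Hmga1 (2136 ± 663 TPM; SD, n = 4) to Hmga2 (276 ± 196), Igf2bp2 (101 ± 40.2), Arid3a (10.5 ± 4.90), Igf2bp3 (8.36 ± 5.28), Igf2bp1 (8.30 ± 2.65), Arid3b (1.97 ± 0.728), Lin28b (1.28 ± 1.20) and Trim71 (1.28 ± 0.767). Hmga1 stood clear of Hmga2, Igf2bp2 of Arid3a, and Igf2bp1 of Arid3b, while the libraries of other neighbours overlapped. In ΔAgo2 cells Hmga1 (2084 ± 538 TPM) was again first. Hmga2 (963 ± 128) now stood clear of Igf2bp2 (157 ± 23.5), and Igf2bp3 (15.2 ± 1.97) came before Arid3a (12.4 ± 2.33), which it overlapped. Lin28b (0.515 ± 0.0624) came last, below every library of Trim71 (1.17 ± 0.148).

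The spread between replicates was larger in wild-type cells for most tested genes, and was compared for the targets beside them. The SD of log2 CPM was larger in wild-type cells for 8 of 9 targets, Igf2bp1 (0.25 against 0.32) being the exception, and for 93.3% of tested genes. With wild-type replicate 4 left out it was larger for 5 of 9 targets and for 78.8% of tested genes. For Hmga2 it was 0.94 in wild-type, 0.98 without replicate 4, and 0.20 in ΔAgo2 cells. The wide spread of Hmga2 in wild-type cells was thus as large without that library.

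Genes were also ordered by how closely they followed Hmga2, as the mean absolute difference of log2 CPM, centred on each gene's mean, over the 8 libraries. The nearest were Gm38158, a processed pseudogene (0.21), D5Ertd615e, a long noncoding RNA (0.21), and Ric3, a chaperone of acetylcholine receptors (0.23). All 3 had few reads, with means in ΔAgo2 cells of 5.90, 3.64 and 0.206 CPM, in the same order. The nearest other target was Igf2bp3, at 0.67, and the farthest was Lin28b, at 1.49.

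A longer list of let-7 targets from general knowledge held 35 other genes, of which 30 were tested. Of these, 0 passed an adjusted p of 0.05 by edgeR or DESeq2, where 0.295% and 2.23% of all genes did. The log2 fold change was above 0 for 19 and below 0 for 11, beside 41.2% of tested genes above 0. Without wild-type replicate 4 it was above 0 for 17 of the 30, and for 6536 of the 14228 tested genes. At an unadjusted p under 0.05, 3 were higher, Ccnd1, Cdk6 and Plagl2, and 0 were lower, beside 2.72% and 4.62% of tested genes (edgeR). The median was 0.19, and 0.06 without wild-type replicate 4 and 0.09 with the GC correction, beside -0.11, -0.03 and -0.08 over all tested genes. The median GC content of the list was 46.9%.

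Ccnd1, cyclin D1, drives cells into S phase. It was at 527, 530.2, 528 and 1068 CPM in wild-type replicates 1 to 4 and at 1330.5, 1306, 998 and 1201 CPM in ΔAgo2 replicates 1 to 4. Wild-type replicates 1 to 3 were nearly equal and far below every ΔAgo2 library, and replicate 4 lay within the ΔAgo2 range. For Ccnd1 the log2 fold change was 0.87 ± 0.32 (SE), with adjusted p = 0.540 (edgeR). Without wild-type replicate 4 it was 1.20 and passed, with adjusted p = 0.0261, where 0.777% of 14541 genes did, and it passed with limma-voom and quality weights on all 8 libraries (1.24, adjusted p = 0.0065). Neither its 3′ UTR nor that of Cdk6 held an 8mer or a 7mer-m8.

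Cdk6, the kinase that cyclin D1 activates, was at 110, 91.9, 85.9 and 26.5 CPM in wild-type replicates 1 to 4 and at 159, 158, 151 and 121 CPM in ΔAgo2 replicates 1 to 4. The genotypes did not overlap, which with ΔAgo2 higher held for 3.09% of tested genes. The log2 fold change was 0.91 ± 0.39 (SE, adjusted p = 0.664; edgeR), and 0.63 without wild-type replicate 4, with adjusted p = 0.145. Plagl2, a zinc-finger transcription factor, was at 37.7, 60.1, 24.7 and 34.5 CPM in the wild-type and 73.1, 66.9, 51.9 and 59.5 CPM in the ΔAgo2 libraries, in replicate order. Wild-type replicate 2 overlapped the ΔAgo2 cells, and the log2 fold change was 0.68 ± 0.31 (SE, adjusted p = 0.678; edgeR).

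The genes that make and use let-7 gave no call. Of 20 such genes, from the Drosha and Dicer1 nucleases through the Argonaute and Tnrc6 proteins to the uridylyl transferases Tut4 and Tut7, all were tested and 0 passed by edgeR or DESeq2, nor had any an unadjusted p under 0.05. The log2 fold change was above 0 for 14 and below 0 for 6, with a median of 0.13, and -0.01 without wild-type replicate 4. Over all tested genes 41.2% were above 0, with a median of -0.11, and -0.03 without that library. Transcripts that carry let-7 hairpins are only a rough guide to let-7 itself. The host of let-7a-2 (Mir100hg, named 3110039I08Rik in the annotation) was at 222, 155, 249 and 11.8 CPM in wild-type replicates 1 to 4 and at 299, 240.5, 262 and 146 CPM in ΔAgo2 replicates 1 to 4. It was lowest in wild-type replicate 4 and otherwise overlapped between genotypes, with a log2 fold change of 0.57 ± 0.67 (SE, adjusted p = 0.841; edgeR), and 0.19 without that library (adjusted p = 0.803). Huwe1, host of let-7f-2 and miR-98, was at 358 ± 174 and 400.2 ± 37.8 CPM (SD, n = 4 each; adjusted p = 0.931, edgeR). Mir99ahg, which carries let-7c-1, had at most 30 counts in any library, the Mirlet7e hairpin at most 12, and each other let-7 hairpin at most 3.

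Over all tested genes with a 3′ UTR, the median log2 fold change did not rise steadily with the number of 8mers. It was -0.10 for 11657 genes with no 8mer, 0.0052 for 425 with 1, -0.03 for 15 with 2 and -0.35 for 6 with 3 or more. The quartiles of the classes of 15 and 6 genes were -0.22 to 0.04 and -0.73 to 0.11. So few genes cannot show whether the change follows the number of sites. With the GC correction the medians were -0.07, -0.04, -0.10 and -0.32, in the same order, and without wild-type replicate 4 they were -0.03, 0.02, -0.24 and -0.52. Counting 7mer-m8 matches as well, they were -0.11 for 10848 genes with no site, -0.03 for 1101 with 1, 0.03 for 130 with 2 and 0.0037 for 24 with 3 or more. Genes with 1 8mer had a median GC content of 48.3% against 49.9% for those with none, and median 3′ UTRs of 2412 against 1101 bases, whose part in these medians was not tested beyond the correction. The 6 genes with 3 or more were Igf2bp1 and Trim71 with Mcf2l (7 8mers, log2 fold change -1.06), Trim6 (5, 0.21), Nr6a1 (3, -0.51) and Fignl2 (3, -0.80), named for their sites after the values were seen. None of the 6 passed the test, the lowest adjusted p being 0.738 (edgeR).

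**Figure D4:**
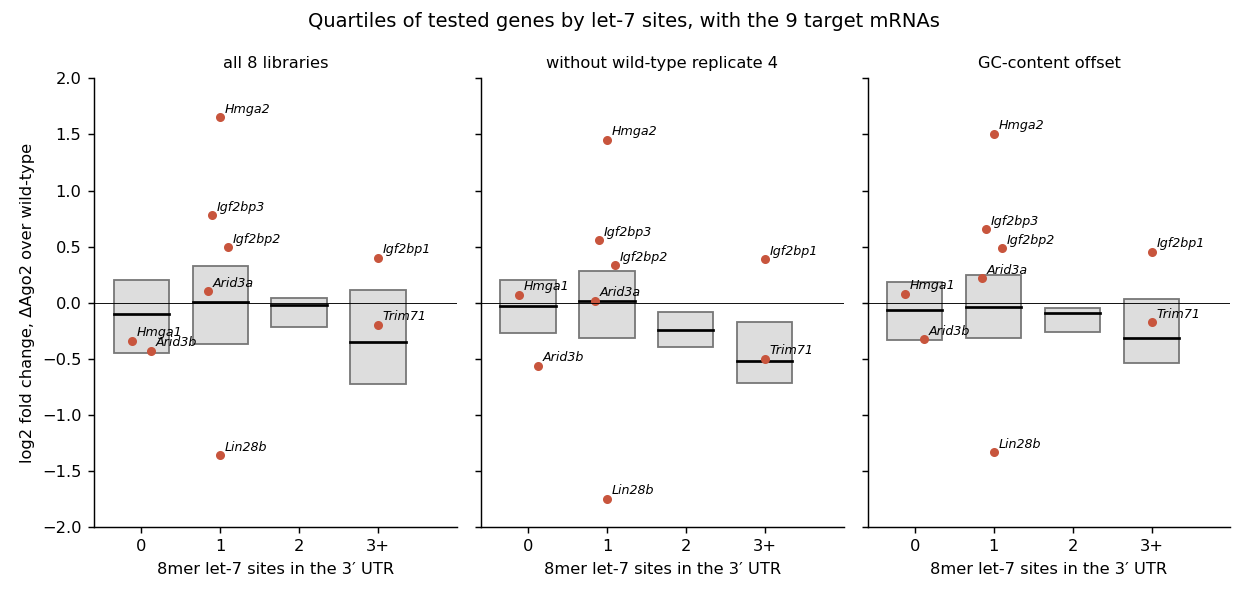
Log2 fold change, ΔAgo2 over wild-type, by the number of 8mer let-7 sites in the 3′ UTR, with boxes for the quartiles of all tested genes, a line for the median and dots for the 9 targets, in 3 fits. With all 8 libraries the medians run from 0.0052 for 1 site (425 genes) to -0.35 for 3 or more (6 genes). In that fit, of the targets with 1 8mer, Hmga2, Igf2bp2 and Igf2bp3 lie above the box and Lin28b below it.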

How the data were processed

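RNA-seq libraries from 4 wild-type and 4 ΔAgo2 cultures were grouped by their labels. The authors aligned reads to ribosomal RNA and then to mm10 (STAR in the submitters' processing notes) and used featureCounts to count them per gene. Raw counts, as deposited, are whole numbers, and the authors added a table of TPM values. The annotation release and strand setting are not given in the sources used here, so overlapping and antisense genes may share reads. Identifiers were matched to GENCODE M21, and 93 of 55487 had no name there.

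Counts were filtered with filterByExpr, normalized with TMM and tested with edgeR 4.0.16 in R 4.3.3 (quasi-likelihood, genotype alone), with Benjamini-Hochberg adjustment. Standard errors are the log2 fold change over the square root of F. Alternatives used DESeq2 1.42.0, limma 3.58.1, other scalings and filters, a GC offset over 20 bins, a replicate block and each library left out.

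The genes named were the targets, listed genes with an unadjusted p under 0.05 (up to 3 per direction), let-7 hosts above 10 counts, and the 3 nearest to Hmga2. The targets and lists were chosen with earlier results of these data known.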

Additional observations from a re-analysis of the deposited data

Results flagged for a closer look

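In groups of 4, a library is singled out where its gap to the nearest other library, divided by the range of the group, passes Dixon's 95% critical value, which chance does in about 1 of 20 groups. In all, 40 groups were examined, so some of those listed may be due to chance. On the log2 CPM scale, ΔAgo2 replicate 3 was far above the others for Hmga1 (gap 0.90 of the range). Wild-type replicate 4 was far below the others for Trim71 (0.857) and for the let-7a-2 host Mir100hg (0.845), and far above them for Ccnd1 (0.99). It was also far from the others in the correlation of its deviation with GC content (0.933).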

How the results depend on the processing

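Of the 9 targets, 5 were above 0 (Hmga2, Igf2bp1, Igf2bp2, Igf2bp3 and Arid3a) and 2 below 0 (Lin28b and Arid3b) in all 22 fits. The fits share libraries, and the share of all tested genes that kept their sign is not given here, so these counts are descriptive. Targets called were 0 in all fits but DESeq2 (1) and DESeq2 without wild-type replicate 4 (2), a fit chosen after the data were seen. Calls over all genes were 399 with DESeq2, 143 without a filter, 257 with limma-voom and quality weights, 15 on log2(TPM + 1) and 70 with the GC offset, and 1 to 113 with a library left out (679 with DESeq2 without wild-type replicate 4). Only 1 was left without ΔAgo2 replicate 1. With a replicate block 18 were called, of which 17 were among the 42. Same-numbered libraries correlated at -0.14 to 0.38 in their deviations (mean 0.06, beside -0.02 for different numbers). Of the wild-type libraries, 1 of 4 correlated best with its own number. Whether same-numbered cultures were handled together was not tested. Of the other let-7 targets, Ccnd1 alone was called with limma-voom, which called 1.81% of tested genes. It was also the 1 called by edgeR without wild-type replicate 4, where 0.777% of genes were. DESeq2 without that library, the fit chosen after the data were seen, called 3 of them, beside 679 of 17905 genes.

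Scalings moved the median of all genes, from -0.11 to -0.0077 with library size alone and to 0.15 and 0.22 on TPM with a pseudocount of 1 and 0.1. Genes without an 8mer moved alike, to -0.00063 with library size alone, -0.071 without a filter, -0.069 with the GC offset, 0.00093 with limma-voom, 0.17 and 0.22 on TPM, 0.020 with the replicate block, 0.00021 with the GC offset and block, -0.14 to -0.027 with a library left out and -0.021 by DESeq2 without wild-type replicate 4. Genes with 1 8mer moved to 0.24 and 0.34 on TPM.

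Signs turned for 5 of the genes recomputed in every fit, and the cause was not tested. Hmga1 was at 0.079 with the GC offset, 0.061 with GC offset and block, -0.58 to 0.071 with a library left out (0.071 without wild-type replicate 4) and 0.072 by DESeq2 without it. Trim71 was at 0.0044 and 0.17 on TPM and 0.089 with GC offset and block, and Hmga1b at 0.052 with the GC offset and 0.028 with GC offset and block. With a library left out Huwe1 ran from -0.11 to 0.37 and Ago2 from -0.047 to 0.60, the lowest without wild-type replicate 4, where DESeq2 gave -0.10 and -0.044. Of other genes named, Trim6 turned to -0.065 and Tut4 to -0.29 without wild-type replicate 4. At 6 counts in that library, the depth behind Lin28b was the lowest among the targets.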
